A study of Mus musculus with 6 samples.

Results

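The genes examined here encode the molecules of the mouse major histocompatibility complex (MHC), their partners and their regulators, as measured in adipose tissue of KM mice. Members were all rows of the deposited expression table whose symbol begins with H2-, together with Cd1d1, Cd1d2, B2m, Tap1, Tap2, Tapbp, Cd74, Ciita and Nlrc5. That gave 43 genes of 19928 in the table. By role, 2 were grouped as classical class I heavy chains, 22 as nonclassical class I-like heavy chains and 10 as class II chains. Another 7 serve peptide loading or regulation, and 2 (H2-Ke2 and H2-Ke6) lie in the region without encoding an MHC molecule. RefSeq lists Cd1d2, H2-K2, H2-Bl, H2-T10 and H2-Ea-ps (as H2-Ea) as transcribed pseudogenes. The study compared 3 samples of mice given radix Angelica sinensis (RAS), a herbal root preparation, at a dose of 10.00 g/kg BW (body weight), with 3 samples of a control group. The control columns of the table were identified by elimination, since no label names them. All mice were of the KM stock, and the series title places the study in high-fat diet-induced animals. Age, sex and fat depot were not given in the sources used here. No label tells whether 1 sample stands for 1 animal, so the p-values cover the variation among these 6 samples, which may be technical. KM is an outbred stock whose animals can carry different MHC haplotypes. No haplotype is stated for any sample, and its part in the values below was not tested.

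Class I molecules pair a polymorphic heavy chain with beta-2 microglobulin and show peptides from the cytosol, pumped into the endoplasmic reticulum by the Tap transporter, to CD8+ T cells. They are made by nearly all nucleated cells, adipocytes included. Class II molecules pair an alpha and a beta chain, are guided by the invariant chain Cd74, and show endocytosed peptides to CD4+ T cells. They are typical of dendritic cells, macrophages and B cells, all of which reside in fat. Nonclassical class I genes of the Q, T and M regions and the Cd1d genes present special ligands such as lipids, formyl peptides or leader peptides. Nlrc5 and Ciita are the transcriptional coactivators of class I and class II genes.

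Values are FPKM, fragments per kilobase of transcript scaled to the size of the library, which can be compared between genes as a level per length. Libraries held 14379617 to 15748685 assigned reads, and the adipocyte gene Adipoq was at 2357 to 3460 FPKM in all of them. Of the 43 members, 34 had a mean of at least 1 FPKM over the 6 libraries and entered the test. In limma's moderated test on log2(FPKM + 1), RAS minus control, 0 of the 34 had an adjusted p under 0.05, as did 0 of all 12606 genes tested (a background of 0%). The adjusted p values of the members ran from 0.313 to 0.976. At an unadjusted p under 0.05 stood 9 members, 7 higher and 2 lower with RAS, against a background of 10.3% of all genes tested (3.86% higher and 6.41% lower). Over all genes that split was 486 higher and 808 lower, but 664 and 640 with median-ratio size factors in place of the authors' scaling. For 4 of the 34 the libraries of both groups did not overlap in FPKM, 3 higher and 1 lower with RAS, against 17.9% of all genes (5.42% higher and 12.5% lower). Of the 34, 25 had a higher and 9 a lower mean log2 value with RAS, with a median difference of 0.29, against 5416 of 12606 genes higher and a median of -0.04. These counts cover the tested members only. H2-Bl entered the test through 2 RAS libraries alone, and its groups were apart only by the scaling of 1 read in control 1 and 1 read in RAS 1. H2-Bl also counts among the 9 and the 7 at an unadjusted p under 0.05 in limma, and among the 25. Without it, 3 of 33 did not overlap, 2 of them higher with RAS.

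**Figure D1:**
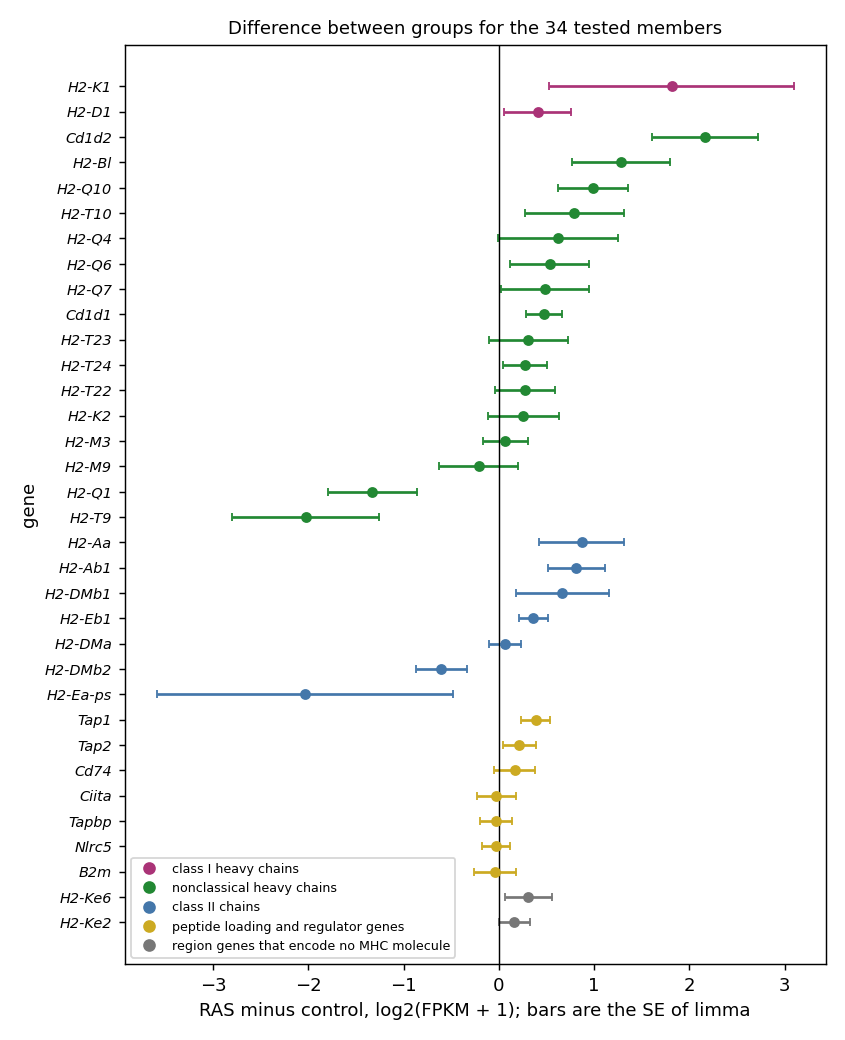
Difference between groups on the log2(FPKM + 1) scale, RAS minus control, for each of the 34 tested members, coloured by role. Points are limma estimates and bars their SE. Peptide loading and regulator genes sit between -0.04 and 0.39, while single heavy chain and class II genes spread from -2.04 to 2.17 with wide bars.

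The classical class I heavy chains differed from library to library more than from group to group. H2-K1 (NCBI gene 14972; chromosome 17, 33996012 to 34000333) was at 33.9, 177 and 43.6 FPKM in controls 1, 2 and 3 and at 25.5, 649 and 697 in RAS 1, 2 and 3. RAS 2 and RAS 3 were high, control 2 lay between, and RAS 1 was the lowest of all, so the groups overlapped. Those levels rested on 544 reads in RAS 1 and 14659 in RAS 3. The log2 difference was 1.81 ± 1.28 (SE; limma adjusted p = 0.659). It was 3.37 without RAS 1, 1.06 without RAS 2, 1.01 without RAS 3 and 0.56 without both control 1 and RAS 3. H2-D1 (NCBI gene 14964; chromosome 17, 35263094 to 35282104, a listed locus shared with another gene), the other classical heavy chain, was at 546, 272 and 657 FPKM in the controls and at 476, 763 and 627 with RAS. Control 2 was the low library here and the groups overlapped (log2 0.41 ± 0.35, adjusted p = 0.722 in limma). Without control 2 that difference was 0.03. H2-K1 made up 5.84, 39.4 and 6.22% of the summed FPKM of both genes in the controls, and 5.09, 46.0 and 52.7% with RAS. The sum itself was 449 to 701 FPKM in the controls and 502, 1412 and 1324 in RAS 1, 2 and 3.

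The upstream sequences of these genes are shown because H2-K1 and H2-D1, with such different values across the libraries, carry the same kappa B motif of the class I enhancer A. RefSeq promoters (GRCm38.p6, the C57BL/6J reference) matched 29 of the 43 members, and the 250 bases upstream of the start were searched on both strands. That motif, whose letters are the longest run of capitals in each sequence, was found upstream of H2-K1, H2-D1 and H2-Q6 and in 0.0304% of 32851 promoters. The Y box CTGATTGG, the site of the factor NF-Y, was found upstream of 12 members, H2-D1 and H2-Q6 among them, and in 3.83% of all promoters. H2-K1 had no match in the bases searched. At another RefSeq start of H2-K1 (upstream bases chr17:34000334-34000533), these end in ccaatc, the opening letters of the reverse complement CCAATCAG. A site that crosses the start would be missed. The last 200 bases before the start follow, with matches to the motifs in capitals.
H2-K1, chr17:34000348-34000547, minus strand: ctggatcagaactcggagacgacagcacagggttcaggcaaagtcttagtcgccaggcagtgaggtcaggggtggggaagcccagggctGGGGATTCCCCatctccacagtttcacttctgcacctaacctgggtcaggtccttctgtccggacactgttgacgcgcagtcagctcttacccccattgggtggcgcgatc
H2-D1, chr17:35262894-35263093, plus strand: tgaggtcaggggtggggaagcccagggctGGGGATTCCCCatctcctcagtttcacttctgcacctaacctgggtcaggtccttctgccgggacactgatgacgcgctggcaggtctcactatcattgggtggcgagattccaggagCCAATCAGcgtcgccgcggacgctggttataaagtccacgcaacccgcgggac
H2-Q6, chr17:35424650-35424849, plus strand: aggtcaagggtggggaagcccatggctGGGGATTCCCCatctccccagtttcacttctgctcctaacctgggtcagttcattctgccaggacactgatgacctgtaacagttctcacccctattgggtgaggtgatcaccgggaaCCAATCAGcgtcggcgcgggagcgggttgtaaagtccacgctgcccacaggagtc
A match is a description of these letters in the reference, and the sequence carried by the KM samples was not examined.

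The light chain and the peptide loading genes spanned narrower ranges across the same libraries. B2m, the light chain of all class I molecules (NCBI gene 12010), was at 3190, 2894 and 3075 FPKM in the controls and 2685, 2843 and 3433 with RAS, the highest level of any member. Its highest library was 1.28 times its lowest, and the log2 difference was -0.04 ± 0.22 (SE), with the sign turning under other scalings. Tap1, 1 of the 2 subunits of the peptide transporter, was at 12.5, 10.2 and 11.4 FPKM and 12.4, 18.3 and 15.1 (log2 0.39 ± 0.15; limma adjusted p = 0.463, unadjusted p = 0.0401). RAS 2 and RAS 3 were above every control, and RAS 1 lay just under control 1. Tap2, the partner subunit, was at 28.2 to 30.1 FPKM in the controls and at 26.0, 36.6 and 40.2 in RAS 1, 2 and 3 (log2 0.22). Tapbp, the tapasin that tethers class I molecules to the transporter, was at 68.9 to 98.2 FPKM and 70.9 to 83.0 (log2 -0.03), and the class I coactivator Nlrc5 at 4.55 to 4.97 and 3.91 to 5.94 (log2 -0.04). The sign of the last 2 turned in some alternatives.

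The chains of the class II A pair and the E beta chain had higher means with RAS, and none passed the test. H2-Ab1, the A beta chain (NCBI gene 14961; chromosome 17, 34263227 to 34269418), was at 66.4, 98.8 and 78.2 FPKM in the controls and 88.5, 182 and 175 in the RAS libraries. The means were 0.81 ± 0.30 apart on the log2 scale (SE; limma adjusted p = 0.431, unadjusted p = 0.0291). The last 2 RAS libraries stood apart and RAS 1 lay within the control range. H2-Aa, the A alpha chain (NCBI gene 14960; chromosome 17, 34282751 to 34287771), was at 82.1, 160 and 83.4 FPKM and at 96.5, 245 and 288 (log2 0.87 ± 0.45, adjusted p = 0.555 in limma), with RAS 1 again inside the control range. H2-Eb1, the E beta chain (NCBI gene 14969; chromosome 17, 34305867 to 34316674), was at 69.3, 89.4 and 67.2 FPKM and at 91.3, 94.3 and 104 (log2 0.36 ± 0.15, adjusted p = 0.476 in limma, unadjusted p = 0.0471). It was the tested class II member whose group ranges did not overlap, by a gap of 89.4 to 91.3.

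H2-Ea-ps, the E alpha gene (NCBI gene 100504404; chromosome 17, 34341957 to 34347547), was at 55.0, 151 and 52.7 FPKM in the controls and at 68.2, 0.125 and 83.4 in RAS 1, 2 and 3. The RAS 2 value rested on 2 reads and the other libraries on 895 to 2821. As background, this gene lacks its promoter in the b haplotype of the C57BL/6 strain, where it is not transcribed, and GENCODE M21 lists it as a polymorphic pseudogene. Its log2 difference of -2.04 ± 1.55 (SE; limma adjusted p = 0.680) was -0.01 without RAS 2. In RAS 2 its partner H2-Eb1 was at 94.3 FPKM, between the other RAS libraries.

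The upstream sequences of H2-Aa and H2-Eb1 are printed as examples of class II genes with a RefSeq promoter that were highest in RAS 2 and RAS 3, which H2-DMb1 was too. Both hold the Y box. H2-Eb1 also holds a match to the X box core bound by the Rfx factors, the longer run of capitals in it. Such a match was found in 0.259% of all promoters and in 3 members with a promoter (H2-DMb1, H2-Eb1 and H2-Eb2). The search for this box used a fixed pattern of letters. An X box with other letters, in H2-Aa or elsewhere, would be missed, so its absence from H2-Aa was not shown.
H2-Aa, chr17:34287824-34288023, minus strand: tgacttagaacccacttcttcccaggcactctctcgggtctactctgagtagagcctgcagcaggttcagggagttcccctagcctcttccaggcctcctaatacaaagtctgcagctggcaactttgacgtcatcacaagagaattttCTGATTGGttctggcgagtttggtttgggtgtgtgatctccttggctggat
H2-Eb1, chr17:34305667-34305866, plus strand: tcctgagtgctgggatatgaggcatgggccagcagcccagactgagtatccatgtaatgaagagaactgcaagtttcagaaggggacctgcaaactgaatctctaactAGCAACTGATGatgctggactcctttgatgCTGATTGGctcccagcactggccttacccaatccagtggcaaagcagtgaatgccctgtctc
No upstream sequence is shown for H2-Ab1 or H2-Ea-ps.

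Among the chaperones that edit class II peptides, the paralogs H2-DMb1 and H2-DMb2 had differences of opposite sign. H2-DMb1 was at 4.94, 12.5 and 5.55 FPKM in the controls and 5.15, 18.3 and 16.7 with RAS (log2 0.67 ± 0.49; adjusted p = 0.671 in limma). H2-DMb2 was at 5.66, 5.08 and 6.42 FPKM and at 5.97, 2.76 and 2.27 (log2 -0.60 ± 0.27; limma adjusted p = 0.502). RAS 2 and RAS 3 were the highest libraries of the first and the lowest of the second. In GENCODE transcripts, 22.7% of the words of 50 bases of H2-DMb1 also occur in H2-DMb2, so the division of reads between them is uncertain. Summed, both genes were at 10.6, 17.6 and 11.97 FPKM in the controls and 11.1, 21.1 and 19.0 with RAS. Their partner H2-DMa was at 15.5 to 23.01 FPKM and 17.6 to 19.6 (log2 0.06, with a sign that turned in some alternatives).

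The invariant chain and the class II coactivator had differences nearer to 0. Cd74 (NCBI gene 16149) was at 291, 454 and 325 FPKM in the controls and 351, 375 and 460 with RAS (log2 0.17 ± 0.22; limma adjusted p = 0.810), and Ciita at 1.53, 2.28 and 1.23 and at 1.80, 1.97 and 1.10 (log2 -0.03 ± 0.20). In both genes the sign turned under quantile normalization. Of the other class II members, H2-Oa, H2-Ob and H2-Eb2 had means under 1 FPKM and were not tested. The peptide exchange inhibitors H2-Oa and H2-Ob lay at 0.566 to 1.10 and 0.401 to 1.82 FPKM over the 6 libraries, and H2-Eb2 had at most 4 reads.

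**Figure D2:**
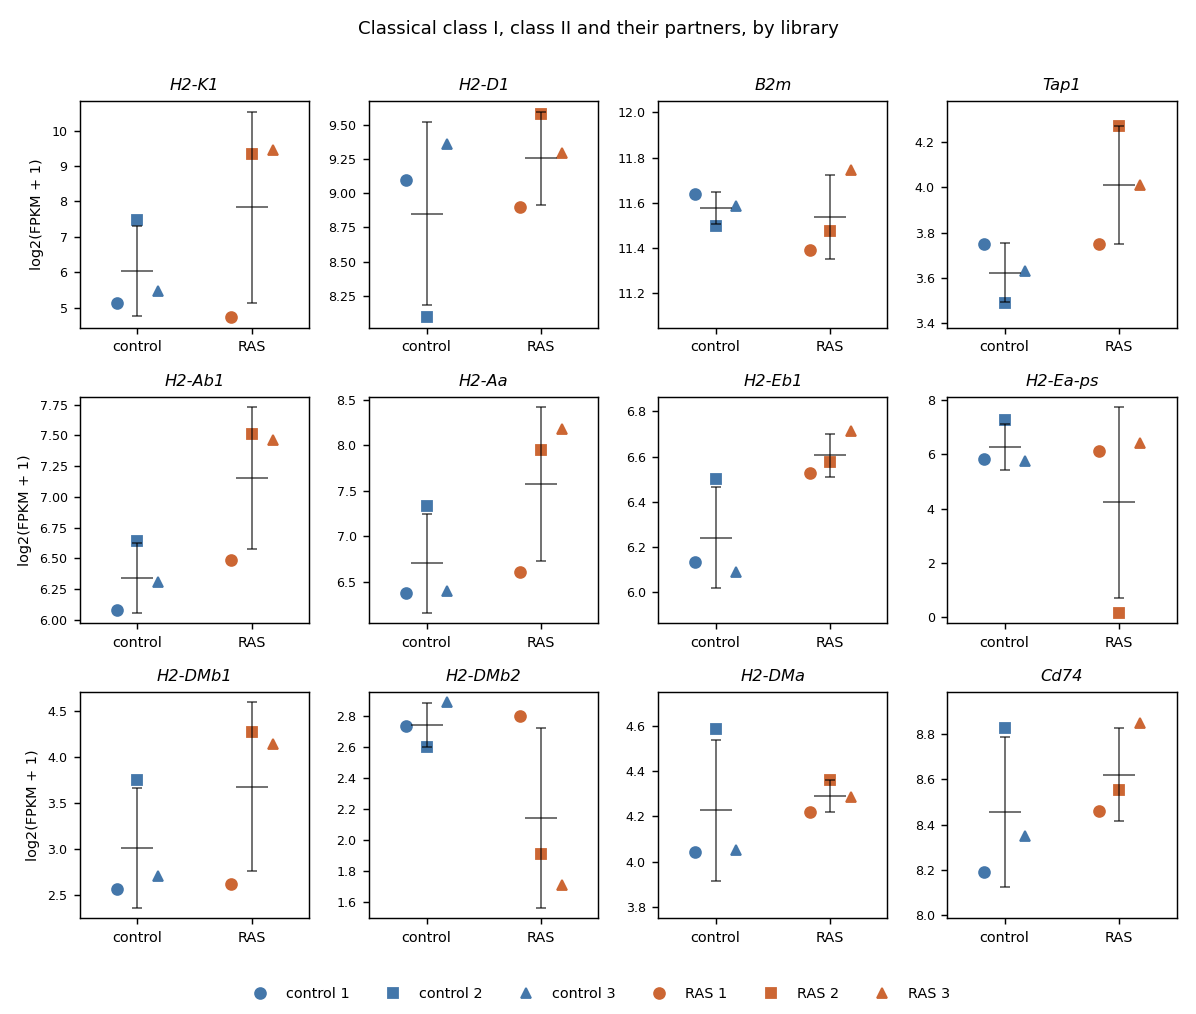
Level of 12 members in each library, as log2(FPKM + 1), for classical class I and class II genes and their partners. Points are libraries, and the line and bars are the mean and SD of 3. RAS 2 and RAS 3 lie apart from RAS 1 in H2-K1, H2-Ab1, H2-Aa and H2-DMb1, and H2-Ea-ps is near 0 in RAS 2. The values of B2m, Tap1, H2-Eb1, H2-DMa and Cd74 span less than 1 log2 unit.

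Markers of cells that carry class II were read beside these values. The 10 macrophage markers summed to 434 to 500 FPKM in the controls and 375 to 563 with RAS, 9 dendritic cell markers to 19.1 to 28.2 and 16.6 to 21.7, and 7 B cell markers to 7.79 to 15.7 and 8.40 to 13.2. No marker of these lists was at 0 in any library. Of the tested markers, 3 of 10 macrophage, 1 of 5 dendritic and 1 of 4 B cell markers had a higher mean with RAS, and 0 had an adjusted p under 0.05 in limma. Mrc1 (log2 -0.25), Emr1 (0.13), Itgam (-0.10) and C1qb (0.09) came first in the macrophage list by p, Zbtb46 (0.24), Batf3 (-0.47), Cd209a (-0.25) and Itgae (-0.38) in the dendritic list, and Ms4a1 (-0.35) in the B cell list. By library, the macrophage sum was 434, 449 and 500 FPKM in the controls and 375, 452 and 563 in RAS 1, 2 and 3. The dendritic sum was 19.1, 28.2 and 20.2 FPKM and 16.6, 21.7 and 21.3, and the B cell sum 7.79, 15.7 and 12.1 and 9.40, 8.40 and 13.2. RAS 3 had the highest macrophage sum, and control 2 the highest dendritic and B cell sums. Most of each macrophage sum was C1qa, C1qb and C1qc, at 168, 124 and 138 FPKM in RAS 3. Of the other macrophage markers, Fcgr1 was highest in RAS 3 (1.635 FPKM) and Itgam lowest there (8.08 FPKM). In bulk tissue, fewer cells of a type and less RNA per cell cannot be told apart, and the part of these cells in the class II values was not tested.

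The 7 adipocyte markers summed to 33090, 26600 and 27640 FPKM in the controls and 44740, 36640 and 53170 with RAS, without overlap. Most of each sum was the fatty acid binding protein gene Fabp4, at 26450, 20820 and 21830 FPKM in the controls and 38120, 30160 and 45590 with RAS (log2 0.71; limma adjusted p = 0.537). Of the 7, 5 had a higher and 2 a lower mean with RAS, and 0 had an adjusted p under 0.05 in limma. Group ranges did not overlap for 17.9% of all genes tested (5.42% higher and 12.5% lower with RAS) and for 4 of the 7 markers. Those were Fabp4, the lipid droplet gene Cidec (log2 0.41) and the lipase gene Lipe (0.13), which were above the controls, and the leptin gene Lep (-0.63; limma adjusted p = 0.369, unadjusted p = 0.0124), which was below them. No marker was at 0 in any library. The part of these genes' differences in the class I and class II values was not tested.

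Cd1d2 had the smallest p among the members. This gene is the neighbour and close copy of Cd1d1, which presents lipids to natural killer T cells, a population found in fat. Cd1d2 (NCBI gene 12480; chromosome 3, 86986586 to 86989533) was at 2.27, 1.99 and 1.90 FPKM in the controls and at 25.3, 3.995 and 18.6 in RAS 1, 2 and 3, on 37 to 43 and 72 to 455 reads. All RAS libraries lay above all controls, RAS 2 far less so than the others. The log2 difference was 2.17 ± 0.56 (SE; limma adjusted p = 0.313), and without RAS 2 it was 2.90 with an adjusted p of 0.0151. In its other alternatives the adjusted p ran from 0.268 to 0.570. Cd1d1 (NCBI gene 12479; chromosome 3, 86995834 to 86999340) was at 171, 122 and 148 FPKM and at 232, 214 and 169 (log2 0.47 ± 0.19, adjusted p = 0.463 in limma), where RAS 3 fell within the control range. Of the 50-base words of Cd1d2, 31.0% also occur in Cd1d1, the more abundant gene, so the division of reads between them is uncertain. GENCODE M21 lists Cd1d2 as a polymorphic pseudogene. RAS 1 was the highest library of both genes, and in RAS 3 Cd1d1 was at its lowest RAS level while Cd1d2 was at 18.6 FPKM. How far reads of either gene were counted for the other was not tested.

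In the Q region, H2-Q1 and H2-Q10 had differences of opposite sign. H2-Q1 (NCBI gene 15006; chromosome 17, 35320558 to 35325099) was at 47.4, 42.3 and 45.5 FPKM in the controls and 37.3, 7.78 and 17.3 with RAS, with no overlap (log2 -1.33 ± 0.47; limma adjusted p = 0.424). Its control SD was 2.61 and its RAS SD 15.1 (n = 3 each). H2-Q10, known as a secreted class I-like molecule of the liver (NCBI gene 15007; chromosome 17, 35470089 to 35474563), was at 79.6, 37.8 and 36.9 FPKM and at 108, 63.3 and 132 (log2 0.99 ± 0.37; limma adjusted p = 0.432). Control 1 lay above RAS 2, so its groups overlapped. Without control 1 the difference was 1.35. Of the words of sequence of H2-Q1, 15.0% also occur in other genes, 9.0% in H2-Q2. For H2-Q10 the share was 19.0%, with 14.0% in H2-Q7. The division of reads between these genes is therefore uncertain, and its part in the opposite signs was not tested.

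H2-Q4, H2-Q6 and H2-Q7, of which H2-Q7 encodes a Qa-2 antigen, were each low in control 1 and RAS 1 and high in RAS 2 and RAS 3. H2-Q4 was at 22.8, 22.5 and 76.2 FPKM in the controls and 22.1, 76.1 and 86.9 with RAS. H2-Q6 was at 29.7, 38.4 and 57.6 and at 30.6, 80.3 and 82.3 FPKM. H2-Q7 was at 23.7, 29.0 and 51.6 and at 23.02, 78.4 and 55.4 FPKM. Control 3 stood nearer to RAS 2 and RAS 3 than to the other controls in H2-Q4, the groups overlapped in all 3 genes, and their log2 differences were 0.62, 0.53 and 0.49 with an SE of 0.41 to 0.63. Between 21.8 and 32.0% of their 50-base words occur in other genes, so single values are uncertain. Summed, the 3 genes were at 76.2, 89.9 and 185 FPKM in the controls and 75.8, 235 and 225 with RAS.

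In the T region, H2-T9 had the lowest fitted difference of the nonclassical genes. H2-T9 (NCBI gene 15051; chromosome 17, 36109227 to 36111670) was at 21.9, 22.4 and 17.3 FPKM in the controls and 20.5, 1.37 and 1.81 with RAS, on 17 and 22 reads in RAS 2 and RAS 3. RAS 1 lay among the controls and the other RAS libraries far under them. The log2 difference was -2.03 ± 0.77 (SE; limma adjusted p = 0.439), and without RAS 1 it was -3.05 with an adjusted p of 0.0114. In its other alternatives the adjusted p ran from 0.330 to 0.652. The table gives H2-T9 the Ensembl identifier of H2-T22, which lies elsewhere, so the identifier was not used. Shared words of sequence were therefore not counted for H2-T9, and the division of reads between it and similar genes was not measured. H2-T10 and H2-T22, ligands of gamma delta T cells, are similar genes: 32.9% of the 50-base words of H2-T10 occur in other genes, mainly H2-T22. RAS 3 held 15.7 FPKM of H2-T10, and the other libraries 2.20 to 3.53 (log2 0.79 ± 0.52). H2-T22 was at 58.0, 64.1 and 90.6 FPKM in the controls and 51.9, 101 and 114 with RAS (log2 0.27). Summed, these 3 T genes lay at 83.5, 89.2 and 110 FPKM in the controls and at 76.0, 105 and 131 with RAS, and most of each sum was H2-T22.

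H2-Bl (NCBI gene 14963; chromosome 17, 36080189 to 36084249) was read in RAS 2 and RAS 3 almost alone, at 4.23 and 1.73 FPKM on 50 and 20 reads. RAS 1 and control 1 had 1 read each, and controls 2 and 3 were listed at 0. Its fitted difference of 1.28 was 3.23 with a pseudocount of 0.1 and has no fixed size. H2-T23, which encodes Qa-1, the ligand of inhibitory receptors on natural killer cells, was at 48.0, 68.1 and 122.9 FPKM in the controls and 56.3, 103 and 133 with RAS (log2 0.31 ± 0.41). H2-T24 shares its locus in the table and was at 7.41 to 11.8 FPKM and 9.18 to 15.6 (log2 0.27). The pseudogene H2-K2 was at 5.49 to 12.4 FPKM and 5.68 to 14.1 (log2 0.25), with a sign that turned without control 1.

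In the M region, H2-M3, which presents formylated bacterial and mitochondrial peptides, was at 5.88, 6.66 and 8.85 FPKM in the controls and 4.96, 8.46 and 9.53 with RAS (log2 0.06 ± 0.24). H2-M9 was at 1.86, 2.06 and 5.97 FPKM and at 3.41, 1.10 and 3.23 (log2 -0.21 ± 0.41). Both signs turned when single libraries were left out. The nonclassical members under 1 FPKM were H2-Q2 (0.140 to 1.53 FPKM over the libraries), H2-T3, H2-M1, H2-M2, H2-M5 and H2-M11. H2-M1, of a group known from vomeronasal neurons, had 13 reads in RAS 3 and at most 1 elsewhere, H2-T3 had 7 reads in RAS 3 and at most 2 elsewhere, and H2-M2, H2-M5 and H2-M11 had at most 5 in any library.

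**Figure D3:**
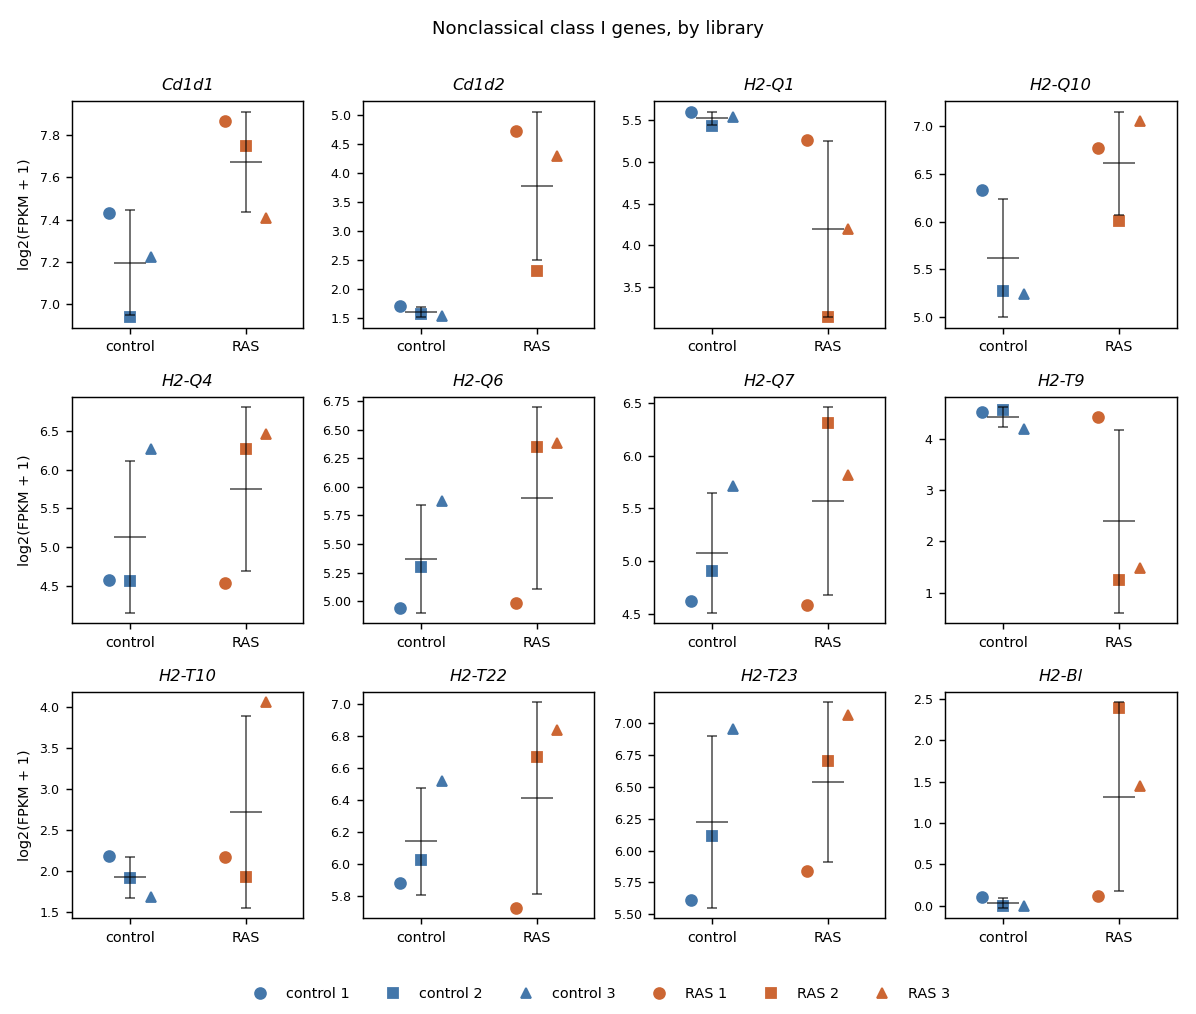
Level of 12 nonclassical class I genes in each library, as log2(FPKM + 1). Points are libraries, and the line and bars are the mean and SD of 3. Cd1d2 and H2-Q1 are apart between the groups, H2-T9 is low in RAS 2 and RAS 3, and H2-T10 is high in RAS 3.

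The 2 region genes that encode no MHC molecule had small differences. H2-Ke2, listed by RefSeq as the prefoldin subunit gene Pfdn6, was at 31.4 to 35.8 FPKM in the controls and at 32.2, 34.4 and 47.9 with RAS (log2 0.16, and -0.01 without RAS 3). H2-Ke6, a steroid dehydrogenase gene, was at 30.1 to 38.5 FPKM and at 34.3, 34.04 and 62.3 (log2 0.31). RAS 3 was the highest library of both, and 70.5% of the 50-base words of H2-Ke6 also occur in the GENCODE gene Gm20427.

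Many members on chromosome 17 shared an order of the libraries. The pairs of libraries given here were chosen after the values were seen. The highest 2 of the 6 libraries were RAS 2 and RAS 3 for 12 of the 28 tested members there (42.9%), against 5.55% of all 12606 genes tested and 10 of 92 other genes (10.9%) lying between the first and last of these members. The 12 include H2-Bl, whose place in this pair follows from how it passed the minimum of 1 FPKM, and without it the count was 11 of 27 (40.7%). The same pair was the lowest 2 for 3 members (H2-DMb2, H2-Q1 and H2-T9; 10.7%), against 11.3% of all genes. Control 1 and RAS 1 were the lowest 2 for 8 of the 28 (28.6%), against 6.07% of all genes and 9 of the 92 neighbours (9.78%). The 28 genes lie close together and share words of sequence, so they are not independent of each other.

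The spread inside groups was wide for many members. The residual SD of the fit placed 16 of the 34 tested members among the 5% of all tested genes with the highest spread. Of these, 12 were nonclassical heavy chains, H2-Bl (top 1.66%) among them. H2-Bl had entered the test through 2 RAS libraries alone. H2-Ea-ps (SD 2.56 on the log2 scale) and H2-K1 (2.11) stood within the top 0.0555% and 0.103%. Peptide loading and regulator genes had a median SD of 0.21, close to the 0.19 of all genes tested, against 0.66 for nonclassical heavy chains and 0.46 for class II chains. None of the 7 was among the 5%.

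**Figure D4:**
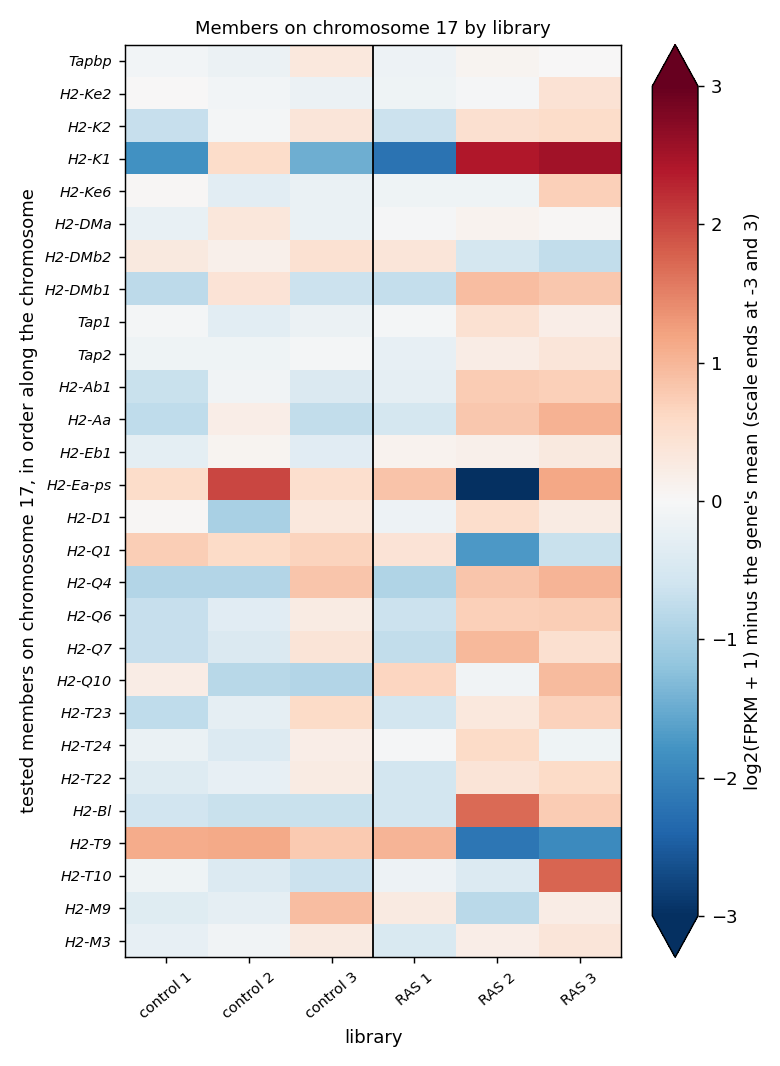
Each of the 28 tested members on chromosome 17, in order along the chromosome, by library. Colour gives log2(FPKM + 1) minus the gene's mean over the 6 libraries, red above and blue below. RAS 2 and RAS 3 share high values of H2-K1, H2-DMb1, H2-Ab1, H2-Aa, H2-Q6 and H2-Bl and low values of H2-Q1 and H2-T9, while control 1 and RAS 1 share low values of H2-K1, H2-DMb1, H2-Q4, H2-Q6 and H2-Q7.

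Other genes of antigen processing, were taken from lists that hold no member. Of 10 class I processing genes, 6 had a higher and 4 a lower mean with RAS (median log2 0.00), and 0 reached an unadjusted p under 0.05. Those with the smallest p were the chaperone Canx (log2 -0.14), the immunoproteasome subunit Psmb8 (0.21), the peptide trimmer Erap1 (-0.10) and the disulfide isomerase Pdia3 (-0.10). Canx was the 1 gene of the 10 whose group ranges did not overlap, at 60.8 to 62.8 FPKM in the controls and 51.6 to 59.4 with RAS. Such ranges, lower with RAS, were found for 12.5% of all genes tested. Psmb8 lay at 40.9, 47.4 and 54.3 FPKM in the controls and 41.8, 53.5 and 73.9 with RAS, with overlap. Of 11 genes of class II processing and regulation, 7 were higher and 4 lower (median 0.03), with 1 at an unadjusted p under 0.05. That was Nfya, a subunit of the Y box factor NF-Y, at 7.64, 8.56 and 7.70 FPKM in the controls and 6.09, 6.63 and 6.51 with RAS (log2 -0.27; limma adjusted p = 0.425). The other subunits Nfyc (log2 -0.24) and Nfyb (-0.15) and the activator Creb1 (-0.10) came next.

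Interferon gamma is the main inducer of MHC genes. Of 9 tested genes of its signalling, 4 were higher and 5 lower (median log2 -0.06). Socs1, a feedback inhibitor of the pathway, was at 2.54, 2.11 and 3.10 FPKM in the controls and at 1.015, 0.994 and 1.54 with RAS (log2 -0.71; limma adjusted p = 0.278), and the myeloid factor Irf8 at 5.62, 5.21 and 4.69 and at 2.89, 4.21 and 3.41 (log2 -0.46; adjusted p = 0.364). Socs1 rested on 23 to 30 reads in the controls and 9 to 14 with RAS. Socs1 and Irf8 had ranges that did not overlap and were lower with RAS, as for 12.5% of all genes tested. They were the 2 of the 9 at an unadjusted p under 0.05 in limma, where 6.41% of all genes tested stood lower with RAS. Irf2 (log2 0.27) and Jak1 (-0.21) came next. Ifng itself lay at 0.0539 to 0.108 FPKM and was not tested. Of 6 costimulation genes, 3 were tested, Icosl (log2 0.13), Cd274 (0.18) and Cd86 (0.04). T and natural killer cell markers were sparse: 3 of 10 were tested, Nkg7 (log2 0.41), Cd3g (0.22) and Ncr1 (-0.12), and their list summed to 5.25 to 9.08 FPKM in the controls and 6.91 to 13.2 with RAS. The 6 endothelial markers summed to 219 to 278 and 214 to 258 FPKM.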

How the data were processed

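RNA of adipose tissue was measured by RNA-seq in 3 control and 3 RAS samples. The authors deposited 1 table with FPKM values and a per-gene count signal for each sample. Per the submitters' processing notes, the tools included TopHat2 2.0.9 and Cufflinks 2.1.1, with no build or annotation given in the sources used here. For 99.67% of 18403 genes the listed position overlapped the gene of that Ensembl identifier in GENCODE M21 (GRCm38), and coordinates are the table's, counted from 1. How far reads from alleles unlike the reference were counted was not tested. The deposited count signal was scaled per sample; 99.29 to 99.38% of its values up to 1000 reads were whole multiples, within 0.02, of 1 value per sample, and reads are the signal divided by that value. A few values lay below it, so no count model was run. The table's DH columns were taken as RAS, from the treatment protocol, and the HC columns as control, by elimination; the 4 columns per group were not used.

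The test was limma 3.58.1 (R 4.3.3; trend, two-sided, Benjamini-Hochberg over 12606 genes whose mean FPKM reached 1, pseudocount 1, threshold 0.05), tested on simulated data. Every member with a mean of at least 1 FPKM is named, and up to 4 genes per other list, by p. The members and lists were chosen with earlier results of these data known. Shared 50-base words were counted over GENCODE M21 transcripts; the read length was not given in the sources used here. Python 3.11.15, pandas 2.3.3, numpy 2.4.6 and matplotlib 3.10.9 were used. Alternatives were other pseudocounts, minimums, scalings and the replicate block, and libraries left out.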

Additional observations from a re-analysis of the deposited data

How the results depend on the processing

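Over 14 alternatives, 439 of 471 values of single members kept their direction, and 21 of the 34 tested members kept it in every alternative. At an unadjusted p under 0.05 in limma stood 1294 of 12606 genes in the main comparison. Under other minimums these were 911 of 8648 at a mean FPKM of at least 5 and 1692 of 19928 with no minimum. Under the other pseudocount and scalings they were 1302 to 1310 of 12606. Genes past the threshold were 0 in the main comparison and 0 under other pseudocounts, minimums and scalings. With single libraries left out they were 0 to 2 (2 without control 1), members past the threshold 0 to 1 (Cd1d2 without RAS 2, H2-T9 without RAS 1), and with control 1 and RAS 3 both left out 3 genes and 0 members passed. The median log2 difference of nonclassical heavy chains, H2-Bl included, was 0.39. It ran from 0.19 to 0.65 with single libraries left out and was 0.032 without both control 1 and RAS 3. The median of peptide loading and regulator genes was -0.03. It ran from -0.0069 to 0.13 with single libraries left out and was 0.079 without both. At a mean FPKM of at least 5, where 5 genes remained in the list, it was 0.17.

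Signs turned as follows, in log2 values. Without both control 1 and RAS 3: Cd74 -0.082, Ciita 0.094, H2-DMa -0.027, H2-K2 -0.23, H2-M3 -0.21, H2-Q4 -0.013, H2-T22 -0.073, H2-T23 -0.26 and Nlrc5 0.089. With median-ratio size factors: B2m 0.0055, Nlrc5 0.0014 and Tapbp 0.013. With the scaled count signal B2m was 0.0015, and under quantile normalization Cd74 was -0.016, Ciita 2e-04 and Nlrc5 0.035. With single libraries left out, B2m ran from -0.14 to 0.0343, Ciita from -0.15 to 0.13, H2-DMa from -0.0298 to 0.24, H2-K2 from -0.0222 to 0.64, H2-Ke2 from -0.0067 to 0.27, H2-M3 from -0.0982 to 0.31, H2-M9 from -0.44 to 0.20, Nlrc5 from -0.18 to 0.0689 and Tapbp from -0.13 to 0.12. The cause was not tested. The split of genes at an unadjusted p under 0.05 was 486 higher and 808 lower, and 664 and 640 with median-ratio size factors, 650 and 660 under quantile normalization, and 636 and 667 with the scaled count signal. The same replicate numbers correlated at 0.096 to 0.219 across groups, each sample best with its own number, and the labels name no pairing. With the replicate block 0 genes and 0 members passed, and 1663 genes against 1294 had an unadjusted p under 0.05. A planned count-model test was not run, since the signal did not give whole reads throughout. Precision was limited by 3 libraries per group, by 17 and 22 reads in the low libraries of H2-T9 and by at most 50 in any of H2-Bl. The counts without H2-Bl were chosen after seeing the data.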
